A study of Homo sapiens with 6 samples.

Results

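The genes described here encode the machinery that brings nuclear-encoded proteins into mitochondria. They were taken as the protein-coding rows whose symbol begins with TIMM or TOMM and a digit, together with PAM16, DNAJC19, GRPEL1, HSPA9, PMPCA, PMPCB, SAMM50, CHCHD4 and GFER. This gave 34 of the 58735 genes in the table. The measurements were read counts per gene from mRNA sequencing of the established human line MOLM-13, an acute myeloid leukaemia that carries the fusion KMT2A-MLLT3 and duplicated FLT3 sequence and is labelled WT in genotype. Of the 6 cultures, 3 were treated with 3.5 nM of 8p for 48 hours and 3 were control cultures of the same duration. The compound 8p is labelled an inhibitor of RET and CDK8, with a stated IC50 of 7 nM. The design text calls the controls untreated and no solvent is named, so an effect of 8p and one of a solvent cannot be told apart.

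Nearly all mitochondrial proteins are made in the cytosol and imported. Precursors are bound by receptors of the TOM complex of the outer membrane and pass through its channel. SAM then inserts beta-barrel proteins, and the MIA disulfide relay handles proteins of the intermembrane space. The small TIM chaperones escort hydrophobic precursors between the membranes, and TIM22 inserts carriers. TIM23 with its PAM motor and the processing peptidase MPP delivers and trims matrix proteins. Proliferating leukaemia cells depend on this supply for respiration and for building new mitochondria.

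Libraries held 14972069 to 16210861 counts with 8p and 18834611 to 23485628 counts in controls. Of 11 markers of leukaemic monocytic cells, all had counts, among them SPI1, CEBPA, FLT3 and CD33. ANPEP, CD14 and ITGAM did not exceed 4.67 CPM (the count of a gene scaled to the size of its library, with TMM factors) in any library. The summed level of all 11 was 1755 to 1831 CPM with 8p and 1119 to 1140 CPM in controls. CEBPA averaged 438 ± 45.2 CPM with 8p and 164 ± 4.07 CPM in controls, while MPO averaged 88.5 ± 0.702 CPM with 8p and 138 ± 6.63 CPM in controls. CD14 averaged 3.33 ± 0.860 CPM with 8p and 0.672 ± 0.182 CPM in controls. CD33 averaged 69.5 ± 5.71 CPM with 8p and 98.3 ± 6.56 CPM in controls. Of 12 markers of other cells, HBB, EPCAM, KRT19 and COL1A2 had no count. The summed level of these 12 was 512 to 581 CPM with 8p and 113 to 117 CPM in controls, nearly all of it from PECAM1, which myeloid cells also express, and none of the others exceeded 3.48 CPM. The part of these marker differences in the import values was not tested. On the first principal component (88.5% of variance) the groups separated, and on the second (4.61%) 8p replicate 2 lay at -35.0, against 16.7 and 18.6 for the other 8p libraries.

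With 8p, transcripts of the import genes, summed, took a smaller share of all counts. The 34 genes took 0.167%, 0.176% and 0.164% of all counts in the 8p libraries, against 0.396%, 0.405% and 0.410% in the control libraries. Every 8p library lay below every control library, and the mean share was 0.169% ± 0.00667 with 8p and 0.403% ± 0.00734 in controls (SD, n = 3 each), 2.39 times higher in controls. An exact two-sided permutation test of the share gave p = 0.10, the smallest that 3 against 3 libraries allow. Mitochondrially encoded transcripts moved the opposite way, at 8.80% ± 2.07 of counts with 8p and 1.77% ± 0.132 in controls. Of the counts outside these, import genes took 0.185% ± 0.00339 with 8p and 0.411% ± 0.00692 in controls. In such bulk libraries fewer cells of a type and less RNA per cell cannot be told apart.

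Gene by gene, 29 of the 34 were lower with 8p and 1 was higher at an adjusted p under 0.05, 2 did not pass the threshold and 2 had too few counts to be tested. Over all 13822 genes tested, 36.9% were called lower and 37.9% higher, 74.7% in all, and among the protein-coding ones 41.6% were called lower. The 3 values with 8p lay below all control values for the same 29 import genes and, among the 32 tested, above them for PAM16 alone, where all genes tested had 38% below and 38.9% above. A fall of at least 2-fold was found for 19 import genes, against 17.5% of all genes tested, and of at least 4-fold for 6, against 5.38% of all. The median log2 fold change of the 32 tested was -1.34, and that of all genes tested was 0.03. The spread among the members was wide, with log2 fold changes that ran from -3.01 for TOMM40 to 0.57 for PAM16, while the median coefficient of variation among replicates was 6.66% with 8p and 6.60% in controls.

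**Figure D1:**
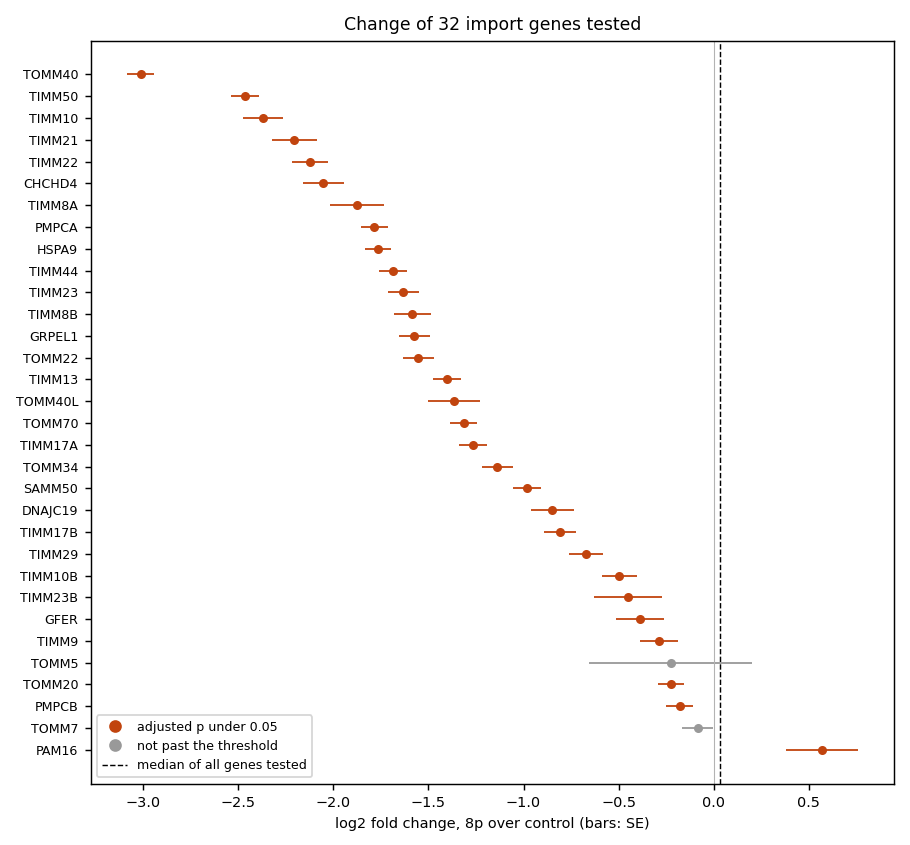
Log2 fold change, 8p over control, of the 32 import genes tested, ordered from the largest fall; bars are standard errors, grey points did not pass the threshold and the dashed line is the median of all genes tested (0.03). TOMM40 lies farthest to the left at -3.01, and PAM16 at 0.57 is the one gene called higher.

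The receptors of the TOM complex, which recognise precursors at the outer membrane, fell to very unequal degrees. TOMM20, the receptor for presequences, had 395, 409 and 376 CPM with 8p, against 447, 437 and 495 CPM in controls. Its groups did not overlap but lay close, at -0.23 on the log2 scale (SE 0.07, adjusted p = 0.00923). TOMM20 was not called with upper quartile factors (adjusted p = 0.631) and with protein-coding genes alone (adjusted p = 0.0819). TOMM22, the central receptor that organises the complex, had 60.7, 54.4 and 56.9 CPM with 8p and 151, 175 and 178 CPM in controls, or -1.55 on the log2 scale (SE 0.08, adjusted p = 1.01e-10). TOMM70, the receptor for carrier precursors that arrive on cytosolic chaperones, fell to 59.7 ± 2.19 CPM with 8p, against 149 ± 6.81 CPM in controls (log2 fold change -1.32). TOMM20L, a close relative of TOMM20, had 5, 9 and 9 counts in the 8p libraries and 6, 6 and 4 in the control libraries, too few to be tested. Its lowest CPM with 8p (0.333, from 5 counts) lay just above the highest in controls (0.280, from 6 counts in a larger library). No direction is drawn from such counts. Exons of TOMM20L share 27.9% of their bases with TIMM9 on the other strand, and the part of this overlap was not tested.

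The gene of the TOM channel had the largest fall of the 32 import genes tested. TOMM40 (ENSG00000130204; hg38, chromosome 19, 44890569 to 44903689, plus strand), the beta-barrel pore through which precursors pass, had 47.0, 49.9 and 48.8 CPM with 8p, against 384, 412 and 379 CPM in controls. The groups lay far apart and the replicates close together, an 8.07-fold fall (log2 fold change -3.01, SE 0.07, adjusted p = 3.37e-14). Per length, its level stood at place 13 of the 34 genes with 8p and at place 4 in controls. Of its windows of 50 bases, 10.9% also occur in other genes. TOMM40L, its paralog, had 12.2, 13.4 and 8.70 CPM with 8p and 28.5, 29.5 and 31.0 CPM in controls, a log2 fold change of -1.37 (SE 0.14). The exons of TOMM40L share 20.1% of their bases with NR1I3 on the other strand, which had 19 counts with 8p and 16 in controls over 3 libraries each.

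The small TOM subunits, which stabilise the complex around its channel, were the one role without a called member, except that TOMM7 was called lower when no filter was used. TOMM7, which is also needed to hold the kinase PINK1 at the outer membrane, had 109, 106 and 101 CPM with 8p and 98.2, 121 and 116 CPM in controls. Its groups overlapped, and its log2 fold change of -0.08 (SE 0.08, adjusted p = 0.360) became 0.10 with upper quartile factors (adjusted p = 0.267) and -0.20 with no filter (adjusted p = 0.0353). Per length, TOMM7 stood at place 2 of the 34 with 8p, against place 9 in controls. TOMM5 had 19, 8 and 17 counts in the 8p libraries and 35, 22 and 15 in the control libraries, or -0.23 on the log2 scale (SE 0.43, adjusted p = 0.642), which was 0.075 without 8p replicate 2 and 0.023 without control replicate 1. Exons of TOMM5 share 14.3% of their bases with AL138752.2 and 9.33% with AL513165.2, both on the same strand. The part of this overlap in the TOMM5 counts was not tested. TOMM6 had no count in any library, where 3 counts over a group would be 0.0646 CPM with 8p and 0.0471 CPM in controls. All 637 exonic bases of TOMM6 lie within exons of AL365205.1 on the same strand, whose part in this absence of counts was not tested. AL365205.1 had 2.13, 1.74 and 1.96 CPM with 8p and 3.50, 3.64 and 2.99 CPM in controls (log2 fold change -0.80, adjusted p = 0.00910).

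Genes acting beside the TOM channel fell as well. TOMM34, a cytosolic cochaperone that binds precursors and heat shock proteins, had 46.9, 45.5 and 42.0 CPM with 8p, against 92.8, 105 and 97.8 CPM in controls (log2 fold change -1.14, SE 0.08, adjusted p = 3.47e-09). SAMM50, the core of the machinery that inserts beta-barrel proteins such as TOMM40 itself, had 64.5, 58.7 and 66.0 CPM with 8p and 125, 119 and 129 CPM in controls. Its log2 fold change was -0.98 (SE 0.07, adjusted p = 7.95e-09).

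**Figure D2:**
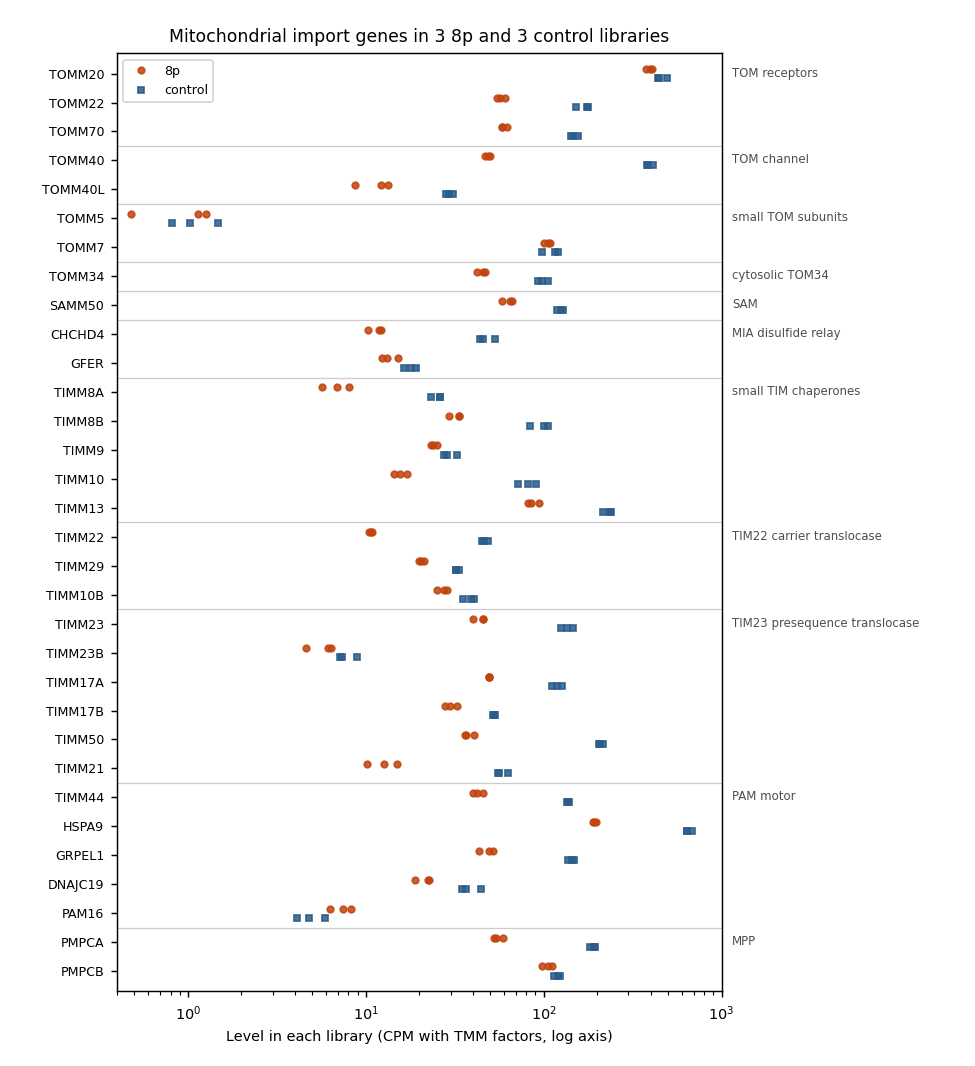
Level of each tested import gene in every library, in CPM with TMM factors on a log axis, grouped by role, with circles for 8p and squares for control. The 8p circles lie left of all control squares in 29 rows, overlap them for TOMM5 and TOMM7, and lie to the right for PAM16.

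In the intermembrane space, both genes of the relay that forms disulfide bonds in incoming proteins were called lower, beside 36.9% of all genes tested. CHCHD4 (ENSG00000163528; chromosome 3, 14112077 to 14124870, minus strand), the human MIA40, had 12.1, 11.9 and 10.3 CPM with 8p, against 45.6, 43.8 and 53.1 CPM in controls. That was a 4.15-fold fall (log2 fold change -2.05, SE 0.11, adjusted p = 1.36e-10). GFER, the sulfhydryl oxidase that reoxidises CHCHD4, had 13.2, 15.3 and 12.3 CPM with 8p and 16.4, 17.9 and 19.3 CPM in controls. Its log2 fold change was -0.39 (SE 0.13, adjusted p = 0.0112), with the call lost under upper quartile factors (adjusted p = 0.154). Of its exonic bases 25.9% lie over AC005606.2 on the other strand, which had no count.

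All 5 small TIM chaperones, which escort hydrophobic precursors between the membranes as rings of mixed subunits, were called lower, TIMM10 by the most. The share called lower over all genes tested was 36.9%. TIMM10 (ENSG00000134809; chromosome 11, 57528463 to 57530803, minus strand) had 15.6, 17.0 and 14.5 CPM with 8p and 72.3, 81.4 and 90.3 CPM in controls, a 5.17-fold fall (log2 fold change -2.37, SE 0.10, adjusted p = 1.35e-11). TIMM9, with which TIMM10 forms a ring, had 24.0, 23.4 and 25.2 CPM with 8p and 28.5, 27.6 and 32.5 CPM in controls (log2 fold change -0.29, SE 0.10, adjusted p = 0.0151). The call of TIMM9 was lost with upper quartile factors (adjusted p = 0.364) and with protein-coding genes alone (adjusted p = 0.0736). Per length, TIMM9 and TIMM10 stood at 16.1 ± 0.609 and 20.2 ± 1.63 RPKM (CPM per kilobase of merged exons) with 8p, against 19.7 ± 1.74 and 104.7 ± 11.6 RPKM in controls, so the pair lay much closer in level with 8p. TIMM8A, whose loss causes a human deafness and dystonia syndrome, had 6.85, 5.69 and 8.10 CPM with 8p and 26.1, 23.2 and 26.3 CPM in controls (log2 fold change -1.88). TIMM13, its ring partner, had 81.7, 94.5 and 85.1 CPM with 8p and 217, 236 and 238 CPM in controls (-1.40 on the log2 scale). TIMM8B, the paralog of TIMM8A, fell to 32.2 ± 2.34 CPM with 8p, against 96.5 ± 11.6 CPM in controls (-1.58). TIMM8B shares 30.1% of its exonic bases with NKAPD1 on the other strand, and TIMM13 15.9% with TMPRSS9 on the other strand and 13.0% with LMNB2 on its own. TIMM9 shares 30.5% of its exonic bases with other genes, the largest part being 14.9% with KIAA0586 on the other strand. Over 3 libraries each, KIAA0586 had 924 counts with 8p and 2699 in controls, TMPRSS9 had 210 with 8p and 149 in controls, NKAPD1 had 1682 counts with 8p and 3271 in controls, and LMNB2 had 3400 with 8p and 18296 in controls. Their part in these 3 genes' values was not tested.

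The TIM22 complex, which inserts metabolite carriers into the inner membrane, was called lower in all 3 of its genes. Of all genes tested, 36.9% were called lower. TIMM22 had 10.6, 10.5 and 10.9 CPM with 8p and 44.8, 46.0 and 48.5 CPM in controls, a 4.35-fold fall (log2 fold change -2.12, SE 0.10, adjusted p = 1.89e-11). TIMM29, a subunit found in animals, had 19.9, 21.2 and 20.5 CPM with 8p and 32.3, 32.3 and 33.6 CPM in controls (-0.67, adjusted p = 6.78e-06). TIMM10B, the small TIM bound to the complex, fell to 27.1 ± 1.71 CPM with 8p, against 38.3 ± 2.55 CPM in controls (-0.50, adjusted p = 1.68e-04).

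All 6 genes of the TIM23 complex, which moves presequence precursors across the inner membrane, were called lower, beside 36.9% of all genes tested. TIMM50 (ENSG00000105197; chromosome 19, 39480412 to 39493785, plus strand), its presequence receptor, had 36.6, 36.2 and 40.9 CPM with 8p, against 207, 206 and 215 CPM in controls. That 5.52-fold fall (log2 fold change -2.47, SE 0.08, adjusted p = 3.14e-13) was the next largest after TOMM40. TIMM21, which links TIM23 to the TOM complex and to the respiratory chain, fell to 12.6 ± 2.39 CPM with 8p, against 58.2 ± 4.38 CPM in controls (-2.20, SE 0.12). TIMM23, the channel subunit, had 45.5, 45.4 and 40.3 CPM with 8p and 125, 136 and 146 CPM in controls (-1.63, SE 0.08). Of its windows of 50 bases, 17.0% also occur in TIMM23B, so reads of the 2 genes can be exchanged. TIMM23B itself had 4.59, 6.35 and 6.14 CPM with 8p and 7.38, 8.88 and 7.13 CPM in controls, which gave -0.45 on the log2 scale (SE 0.18, adjusted p = 0.0322). TIMM23B was no longer called without 8p replicate 1 (log2 fold change -0.34, adjusted p = 0.106), without control replicate 2 (-0.37, adjusted p = 0.122), with DESeq2 (adjusted p = 0.0526), with upper quartile factors (adjusted p = 0.191) and with protein-coding genes alone (adjusted p = 0.0715).

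TIMM17A and TIMM17B encode alternative subunits of the same complex, and both fell. TIMM17A had 49.6, 49.6 and 49.0 CPM with 8p and 119, 111 and 127 CPM in controls (log2 fold change -1.27, SE 0.08, adjusted p = 4.46e-10). TIMM17B had 27.8, 29.9 and 32.4 CPM with 8p and 52.0, 53.0 and 52.8 CPM in controls (-0.81, SE 0.09, adjusted p = 4.29e-07). Within libraries, the ratio of TIMM17A over TIMM17B per length averaged 1.20 with 8p and 1.65 in controls, a difference of -0.45 on the log2 scale.

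The PAM motor, which pulls precursors into the matrix, held 4 genes that fell and the one import gene called higher. Over all genes tested, 36.9% were called lower and 37.9% higher. HSPA9 (ENSG00000113013; chromosome 5, 138553756 to 138575724, minus strand), the mitochondrial HSP70 that drives the motor, had 189, 197 and 193 CPM with 8p and 643, 643 and 681 CPM in controls (log2 fold change -1.77, SE 0.07, adjusted p = 2.60e-12). TIMM44, which tethers HSPA9 to the channel, had 45.5, 42.1 and 39.9 CPM with 8p and 135, 138 and 137 CPM in controls (-1.69, SE 0.07). GRPEL1, its nucleotide exchange factor, had 49.4, 43.3 and 52.1 CPM with 8p and 145, 138 and 149 CPM in controls (-1.57, SE 0.08). These 3 parts of the motor thus fell by similar amounts, while the J-protein pair that regulates HSPA9 gave other values. DNAJC19, the J-protein that stimulates HSPA9, fell to 21.4 ± 2.10 CPM with 8p, against 38.6 ± 5.35 CPM in controls (-0.85, adjusted p = 6.23e-06). PAM16 (ENSG00000217930; chromosome 16, 4331549 to 4355607, minus strand), the J-like partner that restrains DNAJC19, had 8.32, 6.29 and 7.49 CPM with 8p and 4.81, 5.89 and 4.14 CPM in controls. The groups lay close without overlap, at 0.57 on the log2 scale (SE 0.19, adjusted p = 0.0128). PAM16 was no longer called without 8p replicate 1 (0.45, adjusted p = 0.0674), without control replicate 1 (0.52, adjusted p = 0.0560), without control replicate 3 (0.44, adjusted p = 0.0674) and with DESeq2 (adjusted p = 0.0713). It shares 21.9% of its exonic bases with the readthrough gene CORO7-PAM16 on the same strand, which had 1 count in all.

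The processing peptidase MPP, which cuts off presequences in the matrix, is a dimer of PMPCA and PMPCB, and its 2 genes gave very different values. PMPCA (ENSG00000165688; chromosome 9, 136410570 to 136423761, plus strand), the substrate-binding alpha subunit, had 52.6, 54.4 and 58.8 CPM with 8p, against 183, 193 and 195 CPM in controls (log2 fold change -1.78, SE 0.07, adjusted p = 6.06e-12). PMPCB (ENSG00000105819; chromosome 7, 103297422 to 103329511, plus strand), the catalytic beta subunit, had 106, 111 and 98.2 CPM with 8p and 123, 120 and 115 CPM in controls. Its log2 fold change of -0.18 (SE 0.07, adjusted p = 0.0329) became 0.0077 with upper quartile factors (adjusted p = 0.924). The call of PMPCB was also lost without 8p replicate 3 (-0.15, adjusted p = 0.122), without control replicate 1 (-0.18, adjusted p = 0.0780), with total counts only (adjusted p = 0.0670), with protein-coding genes alone (adjusted p = 0.229) and with a minimum of 1 CPM in 3 libraries (adjusted p = 0.0710). PMPCB shares 13.0% of its exonic bases with DNAJC2 on the other strand, which had 2136 counts with 8p and 4622 in controls. Whether counting used strand is not stated, so reads of overlapping genes on opposite strands cannot be told apart.

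The makeup of the import transcripts differed between the groups. TOMM20 made up 23.3% ± 0.562 of import gene counts with 8p and 11.3% ± 0.477 in controls. PMPCB made up 6.24% ± 0.282 of them with 8p, against 2.95% ± 0.205 in controls, and TOMM7 made up 6.23% ± 0.198 with 8p and 2.75% ± 0.245 in controls. TOMM40 made up 2.88% ± 0.0923 with 8p and 9.68% ± 0.600 in controls, TIMM50 2.25% ± 0.196 with 8p and 5.17% ± 0.0993 in controls, and HSPA9 11.4% ± 0.273 with 8p and 16.2% ± 0.243 in controls. Per length, the 3 highest genes were TOMM20 (111 RPKM), TOMM7 (60.1 RPKM) and TIMM13 (44.2 RPKM) with 8p, and TOMM20 (130 RPKM), TIMM13 (117 RPKM) and TIMM23 (111 RPKM) in controls. Across the 32 genes tested, log2 RPKM with 8p and in controls had a Pearson correlation of 0.90. Control level and log2 fold change had a Spearman correlation of -0.34, both being descriptions over genes of the same libraries.

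Ratios within a library do not depend on its scaling, and they showed where partners parted. For TIMM9 over TIMM10 the log2 ratio per length was -0.33, -0.49 and -0.16 in the 8p libraries, against -2.29, -2.51 and -2.42 in the control libraries. The difference was 2.08 and ranged from 2.00 to 2.17 with any 1 library left out. For TOMM40 over TOMM40L it was 1.80, 1.76 and 2.35 with 8p and 3.62, 3.67 and 3.48 in controls, a difference of -1.62. Also without overlap, DNAJC19 over DNAJC15, its paralog, differed by -0.58, TIMM13 over TIMM8A by 0.48 and TIMM17A over TIMM17B by -0.45. Each of these 5 pairs had an exact two-sided permutation p of 0.10, the smallest possible with 3 against 3, and 0.14 after Benjamini-Hochberg adjustment over the 7 pairs. Without 8p replicate 2 the difference of TIMM13 over TIMM8A was 0.29. TIMM8A over TIMM8B differed by -0.30 with overlapping groups (exact p = 0.20, adjusted 0.233), and by -0.17 without control replicate 1. GRPEL1 over GRPEL2, its paralog, had log2 ratios of 2.14, 2.01 and 2.30 with 8p and 2.07, 2.18 and 2.16 in controls. Their difference of 0.01 ranged from -0.06 to 0.08 with any 1 library left out (exact p = 1).

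Another 5 pairs were chosen after their values were seen and are given without a test. PMPCA over PMPCB had log2 ratios of -1.46, -1.48 and -1.19 with 8p and 0.13, 0.24 and 0.32 in controls. Per merged exon length, PMPCB was thus the higher of the dimer with 8p and PMPCA in controls. That order depends on the lengths used, while the difference between the groups does not. TOMM7 over TOMM40 had 2.26, 2.13 and 2.09 with 8p and -0.92, -0.72 and -0.67 in controls. TOMM20 over TOMM22 differed by 1.33, GFER over CHCHD4 by 1.66 and PAM16 over TIMM44 by 2.27, each higher with 8p and without overlap. For these and the earlier pairs, no share of ratios without overlap was taken over other gene pairs. Among all single genes tested, 38% lay below without overlap and 38.9% above.

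**Figure D3:**
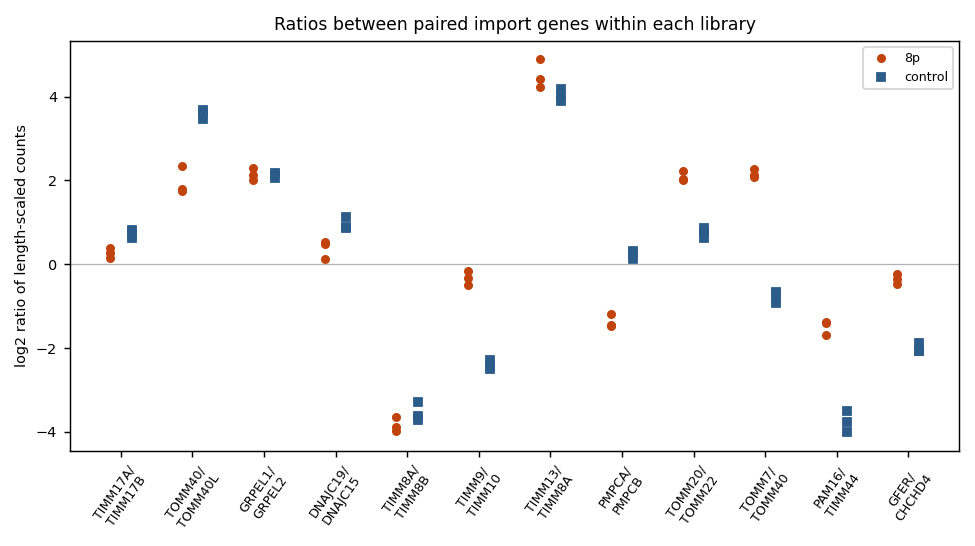
Log2 ratio of length-scaled counts between 2 genes within each library, for 7 pairs tested and, from PMPCA/PMPCB rightward, 5 pairs chosen after their values were seen; circles are 8p and squares are control libraries. TIMM9/TIMM10 differs by 2.08 and TOMM40/TOMM40L by -1.62, while the 8p and control values of GRPEL1/GRPEL2 overlap.

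Genes around the core machinery were counted in lists drawn up with earlier results of these data known. Their counts stand beside 36.9% called lower and 37.9% called higher over all genes tested, and 41.6% called lower among protein-coding ones. Of 18 other genes of import and membrane insertion, 17 were tested, 15 fell and 1 rose, with a median log2 fold change of -0.93. MIPEP, the intermediate peptidase that trims some precursors after MPP, fell to 12.9 ± 3.19 CPM with 8p, against 62.2 ± 1.20 CPM in controls (-2.26). GRPEL2 fell by 1.59 on the log2 scale. OXA1L, which inserts proteins made in the matrix into the inner membrane, was the one that rose, at 321 ± 9.17 CPM with 8p and 277 ± 13.3 CPM in controls (0.21, adjusted p = 0.00802), and lost its call with no filter (adjusted p = 0.320). Among 12 genes of matrix folding and proteolysis, 10 were called lower and 2 higher (median -1.38). The chaperonin pair HSPD1 and HSPE1, which folds imported proteins, changed by -2.19 and -2.69. The inner membrane protease genes SPG7 (1.24) and OMA1 (0.83) were the 2 that rose. Here and in the other lists, genes named because they ran against the rest were picked after their values were seen.

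Lists of substrates, structures and cytosolic partners of import were counted in the same way. Of 19 genes for intermembrane space proteins with paired cysteine motifs, the kind oxidised by CHCHD4, 18 were tested, 16 fell and 2 rose (median -0.94). The complex I subunit genes NDUFS5 and NDUFB7 changed most, by -1.86 and -1.70, and the 2 that rose were COX19 (0.99), which acts in copper delivery to cytochrome oxidase, and COA5 (0.53). Of 7 genes of MICOS, the complex that shapes cristae, 5 fell and none rose (median -1.57), led by CHCHD6 (-2.26) and C19orf70 (-1.70). Of 11 cytosolic chaperone and nascent chain genes 8 fell and NACA (0.76), which binds nascent chains at the ribosome, rose (median -0.92). HSPA8 and HSP90AB1, chaperones that hand precursors to TOMM70, changed by -2.27 and -2.35. For import stress and mitophagy, 11 of 12 genes were tested, of which 6 were called lower and 3 higher (median -0.39), 9 of 11 in either direction against 74.7% of all genes tested. There PGAM5, a mitochondrial phosphatase, changed by -1.95, and BNIP3L, a receptor for mitophagy, rose to 178 ± 4.17 CPM with 8p, against 52.6 ± 2.17 CPM in controls (1.76). The others that rose were PINK1 (0.95), the kinase that marks damaged mitochondria, and the stress factor DDIT3 (1.11). Besides PGAM5, those that fell were MSTO1 (-1.12), ATF4 (-0.79), ATAD1 (-0.71), ATF5 (-0.64) and BNIP3 (-0.39). BNIP3 lost its call with upper quartile factors (adjusted p = 0.0584).

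**Figure D4:**
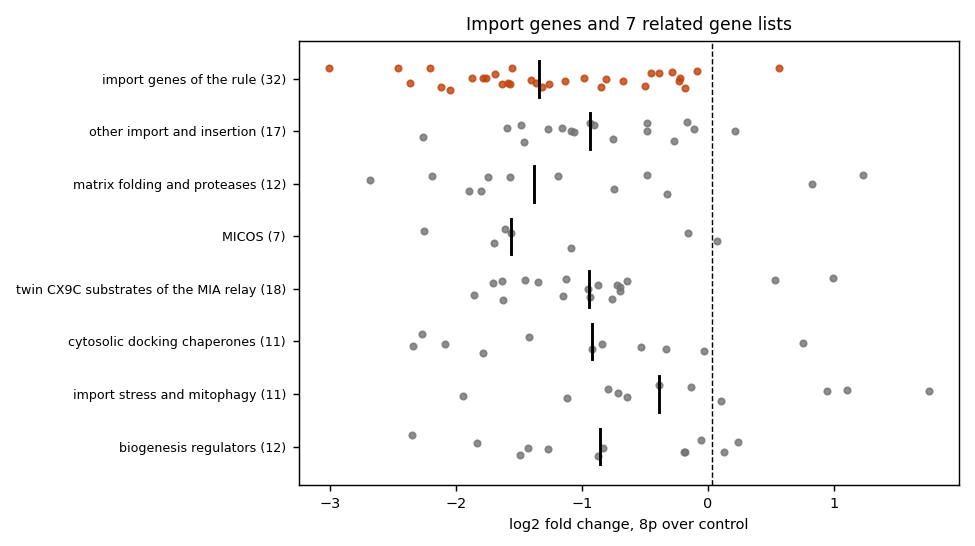
Log2 fold change, 8p over control, of each tested gene of the import machinery and of 7 related lists, with the number tested in brackets; black bars are medians and the dashed line is the median of all genes tested (0.03). The import genes have a median of -1.34, and the lists have medians from -1.57 (MICOS) to -0.39 (import stress and mitophagy).

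Regulators of nuclear genes for mitochondrial proteins, and factors that transcribe mitochondrial DNA, were listed together and gave unlike values. MYC, a transcription factor that promotes growth and acts on many nuclear genes for mitochondrial proteins, had 145, 133 and 146 CPM with 8p and 735, 747 and 687 CPM in controls (log2 fold change -2.35, adjusted p = 3.41e-13). PPRC1, a coactivator of the PGC-1 family, changed by -1.49, and its relative PPARGC1B rose by 0.24 (adjusted p = 0.0485), a call lost with no filter (adjusted p = 0.414). GABPB1 (-0.88), a subunit of the ETS factor GABP, fell. So did 4 genes whose products act on mitochondrial DNA or its transcripts and not on nuclear genes, TFAM (-1.27), TFB1M (-1.43), TFB2M (-1.83) and the polymerase POLRMT (-0.83). No call was made for NRF1 (-0.19, adjusted p = 0.0969), GABPA (-0.18, adjusted p = 0.0524), ESRRA (0.13, adjusted p = 0.171) or YY1 (-0.05, adjusted p = 0.481). PPARGC1A was not tested, with a level of 0.27 CPM in 8p replicate 3 and no count elsewhere. In all, 7 of the 12 tested genes of this joint list fell and 1 rose, beside 36.9% lower and 37.9% higher over all genes tested. Of those 7, 4 were the genes that act on mitochondrial DNA or its transcripts. The rest were MYC, PPRC1 and GABPB1.

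Promoters were searched for short sequences known to be bound by some of these regulators, in the 250 bases before each start in RefSeq (GRCh38.p14), on both strands. An entry was found for 31 of the 34 genes; TOMM5, TIMM8B and GRPEL1 were not matched. The NRF1 motif (GCGCA, any base, then GCGC) was present in 7 (22.6%) of these and in 5.07% of 35114 promoters of the same length. Its stricter form with T as that base, contained in it, was present in 1 (3.23%), that of CHCHD4, and in 1.03% of all. The core TGCGCA, which overlaps many of these matches, was present in 8 (25.8%) and in 6.89% of all. The ETS motif CCGGAAGT was present in 6 (19.4%) and in 3.42% of all. The E-box CACGTG, bound by MYC with MAX, was present in 2 (6.45%), those of TOMM20 and HSPA9, and in 6.35% of all. The YY1 motif AAGATGGCG was present in 1 (3.23%) and in 0.652% of all. Shares over all promoters include many genes that these cells do not express, and a match is a description of letters, not evidence of binding.

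The following promoters were picked because the NRF1 motif, or in TIMM10 the ETS motif, occurs in some genes that fell strongly. It also occurs in genes that fell least or rose. Other genes with large falls lacked these matches. TIMM50 (-2.47) and TIMM21 (-2.20) held none of the 6 motifs, and TIMM22 (-2.12) held only the core TGCGCA. Each is the 250 bases before the start, 5′ to 3′ on the strand of the gene, with matches to any of the 6 motifs in capitals. They lie at TOMM40 chr19:44891004-44891253, plus strand, TIMM10 chr11:57530755-57531004, minus strand, CHCHD4 chr3:14124871-14125120, minus strand, TOMM20 chr1:235128838-235129087, minus strand, TOMM7 chr7:22822850-22823099, minus strand, PAM16 chr16:4351322-4351571, minus strand.
TOMM40: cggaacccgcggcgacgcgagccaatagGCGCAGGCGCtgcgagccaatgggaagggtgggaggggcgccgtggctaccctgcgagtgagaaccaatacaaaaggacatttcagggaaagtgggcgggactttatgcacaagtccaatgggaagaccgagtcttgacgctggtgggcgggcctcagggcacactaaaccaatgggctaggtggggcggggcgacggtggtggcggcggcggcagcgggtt
TIMM10: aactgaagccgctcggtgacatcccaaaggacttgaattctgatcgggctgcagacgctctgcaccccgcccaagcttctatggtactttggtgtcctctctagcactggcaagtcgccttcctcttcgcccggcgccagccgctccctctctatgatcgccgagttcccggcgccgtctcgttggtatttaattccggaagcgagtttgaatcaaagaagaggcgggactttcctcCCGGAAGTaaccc
CHCHD4: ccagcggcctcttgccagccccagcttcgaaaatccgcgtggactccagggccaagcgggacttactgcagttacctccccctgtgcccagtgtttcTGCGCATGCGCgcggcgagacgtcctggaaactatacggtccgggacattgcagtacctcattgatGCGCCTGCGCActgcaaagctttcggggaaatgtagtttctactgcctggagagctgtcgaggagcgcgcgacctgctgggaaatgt
TOMM20: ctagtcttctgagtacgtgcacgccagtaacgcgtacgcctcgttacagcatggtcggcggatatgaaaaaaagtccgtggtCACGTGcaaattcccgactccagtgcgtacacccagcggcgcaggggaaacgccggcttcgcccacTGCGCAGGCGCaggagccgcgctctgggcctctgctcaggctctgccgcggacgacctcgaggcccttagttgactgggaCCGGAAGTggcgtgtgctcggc
TOMM7: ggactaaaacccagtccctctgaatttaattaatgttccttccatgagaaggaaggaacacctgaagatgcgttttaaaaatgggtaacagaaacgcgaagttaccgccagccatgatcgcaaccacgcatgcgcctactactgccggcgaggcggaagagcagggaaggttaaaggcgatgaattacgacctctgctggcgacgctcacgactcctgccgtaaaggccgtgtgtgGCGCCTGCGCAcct
PAM16: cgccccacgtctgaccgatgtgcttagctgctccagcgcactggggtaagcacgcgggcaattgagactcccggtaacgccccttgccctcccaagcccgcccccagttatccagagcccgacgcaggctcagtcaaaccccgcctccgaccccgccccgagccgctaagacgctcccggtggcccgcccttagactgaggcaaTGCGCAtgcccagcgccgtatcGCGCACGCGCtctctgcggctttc
In TOMM40, which fell by 3.01 on the log2 scale, the NRF1 motif match began 222 bases before the start, and in TIMM10 the ETS match began 13 bases before it. CHCHD4 held NRF1 matches that began 152 and 87 bases before the start. TOMM20, with a log2 fold change of -0.23, held an NRF1 motif, an E-box and an ETS match, which began 101, 168 and 22 bases before the start. TOMM7 and PAM16, with log2 fold changes of -0.08 and 0.57, each held the NRF1 motif, which began 14 and 24 bases before it. The 7 genes with the NRF1 motif had log2 fold changes from -3.01 (TOMM40) to 0.57 (PAM16). The part of any motif in these changes was not tested.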

How the data were processed

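The deposited table gives whole-number read counts per gene for 6 libraries, with gene annotation. The tools named in the submitters' processing notes for the authors' work are edgeR 3.22.5 and DESeq2 1.20.0, HISAT2 2.0.5 and featureCounts 1.5.0-p3, on build hg38; strand setting and mRNA enrichment are not given there. All 58735 positions and lengths in the deposited table equalled those of GENCODE release 29, with length as merged exons.

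Counts were tested in R 4.3.3 with edgeR 4.0.16 (quasi-likelihood F test, TMM factors, filterByExpr, group as the only term) and Benjamini-Hochberg adjustment over all 13822 genes tested, calling genes at 0.05. Each standard error is the log2 fold change over the square root of F. Levels are CPM with TMM factors as mean ± SD over 3 libraries, or RPKM per merged exon length. Merged exons can be longer than the transcripts present, so places and comparisons of genes per length depend on that length. The difference of a log2 ratio between the groups does not. TMM presumes a stable majority of genes and no spike-in is named, so fold changes are relative to other transcripts. Nothing in the labels ties replicate numbers across groups; the design text calls the replicates independent. Log2 ratios of genes used counts plus 0.5 over length, with exact permutation tests over libraries. Exon overlaps, shared windows of 50 bases and promoter motifs came from GENCODE 29 and RefSeq. The pipeline was run on simulated counts with 200 changed genes. In these data 74.7% of genes tested were called, so the simulation did not test scaling where most genes change. Alternatives were DESeq2 1.42.0, limma-voom (limma 3.58.1), other scalings, filters and thresholds, a replicate block and each library left out. All 34 genes are named, with up to 2 called genes of largest change per other list (mean log2 CPM of at least 1), MYC and any other regulator. Every called gene of the import stress and mitophagy list is named as well, as are genes that ran against the rest of their list. The genes and lists were chosen with earlier results of these data known.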

Additional observations from a re-analysis of the deposited data

How the results depend on the processing

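Under 18 alternatives, 23 of the 32 tested import genes kept their call and direction, and the median log2 fold change of import genes ran from -1.44 to -1.15. The number called lower ran from 23 (at a minimum log2 fold change of 0.5) to 30 (no filter), against 29, and was 28 with DESeq2, 25 with protein-coding genes alone or at an adjusted p under 0.01, and 28 to 29 with any 1 library left out. The number called higher was 0 with DESeq2, with the minimum fold and at the stricter threshold, and 0 to 1 with any 1 library left out. Upper quartile factors raised the median of all genes by 0.19 on the log2 scale (-1.15 for import genes) and left 24 import genes lower and 1 higher, with 4258 of all genes lower and 6240 higher; TOMM7 then stood at 0.10 and PMPCB at 0.0077. With protein-coding genes alone TOMM7 stood at 0.00084, with no filter it was called lower at -0.20 (adjusted p = 0.0353), and TOMM5 ran from -0.50 to 0.075 with any 1 library left out. The difference of GRPEL1 over GRPEL2 was -0.0094 with 5 counts added in place of 0.5 and ran from -0.062 to 0.079 with any 1 library left out. The cause of these changes was not tested. Same-numbered 8p and control libraries did not deviate together (correlations of -0.0071, -0.018 and -0.043), so the numbers were not taken to pair cultures. The replicate block gave 29 import genes lower and 1 higher, and 5014 of all genes lower and 5076 higher against 5098 and 5232. Counting error weighs most on the genes with the fewest counts, TOMM5 (8 to 35 a library) and TOMM20L (4 to 9).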
